A study of Mus musculus with 18 samples.

Results

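The genes described here are 9 transcripts of the B lymphocyte lineage, taken by symbol from a fixed list of 9 names, all of which were present in both count tables, among 15410 genes in all. They were separated into 3 plasma cell genes (Jchain, Mzb1 and Pou2af1) and 6 B cell genes (Cd79a, Cd79b, Ms4a1, Cd22, Blk and Pax5). B cells carry an antigen receptor on their surface and gather in follicles, which in the colon form small lymphoid patches in the wall. After activation some become plasma cells, which shut down most of the B cell programme and secrete antibody, in the gut mucosa mainly dimeric IgA held together by the joining chain. Pou2af1 is used by both cell types, so its place among the plasma cell genes is not exclusive.

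Bulk RNA was sequenced from colon and from spinal dorsal horn, the sensory part of the cord, in wild-type mice in 3 groups of 3 libraries per tissue, 18 libraries in all. Nivolumab mice had bone cancer and received nivolumab, an antibody made against human PD-1, an inhibitory receptor of lymphocytes. Cancer mice had bone cancer and received control IgG, and sham mice received control IgG without cancer. The labels give no strain, age, sex, tumour line or dose for these groups, and do not say how libraries relate to animals, so the p-values reflect the spread among these libraries alone, part of which may be technical. In bulk tissue, fewer cells of a type and less RNA per cell cannot be told apart.

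Total counts ran from 20896854 to 30803957 per library in the colon and from 21855085 to 29071908 in the dorsal horn. Colon epithelium markers averaged between 10.02 and 11.03 log2 CPM (counts scaled to library size and composition) in the colon libraries. Neuron and glia markers averaged between 9.16 and 9.80 log2 CPM in the dorsal horn libraries. Smooth muscle markers in the colon averaged 7.97 to 8.55 log2 CPM with nivolumab, 9.17 to 10.8 in cancer and 6.89 to 10.7 in sham, so that libraries differed in muscle marker RNA. Dorsal root ganglion markers in the dorsal horn averaged 5.52 to 6.32 log2 CPM with nivolumab, 0.29 to 4.74 in cancer and 0.19 to 4.57 in sham.

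Promoter sequences are shown for Jchain and Pou2af1, which were lower in every cancer than in every sham colon library, and for Pax5, the transcription factor that holds B cell identity and that is switched off in plasma cells. Each is the 250 bases before the gene's start in RefSeq (GRCm38.p6), printed 5′ to 3′ on the gene's strand. RefSeq promoters were matched for 5 of the 9 genes (Jchain, Pou2af1, Cd79a, Cd22 and Pax5). They lie at chr5:88527898-88528147 (minus strand), chr9:51213440-51213689 (plus strand) and chr4:44710695-44710944 (minus strand).
Jchain: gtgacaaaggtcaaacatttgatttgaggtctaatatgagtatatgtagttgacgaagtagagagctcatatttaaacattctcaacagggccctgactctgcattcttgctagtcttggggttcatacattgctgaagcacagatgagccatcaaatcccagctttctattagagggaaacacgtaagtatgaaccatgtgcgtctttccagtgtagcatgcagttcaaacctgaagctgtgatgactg
Pou2af1: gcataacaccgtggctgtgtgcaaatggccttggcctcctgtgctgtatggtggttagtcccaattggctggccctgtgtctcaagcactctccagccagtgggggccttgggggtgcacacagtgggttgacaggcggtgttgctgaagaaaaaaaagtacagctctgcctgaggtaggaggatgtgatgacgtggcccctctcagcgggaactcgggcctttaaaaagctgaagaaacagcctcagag
Pax5: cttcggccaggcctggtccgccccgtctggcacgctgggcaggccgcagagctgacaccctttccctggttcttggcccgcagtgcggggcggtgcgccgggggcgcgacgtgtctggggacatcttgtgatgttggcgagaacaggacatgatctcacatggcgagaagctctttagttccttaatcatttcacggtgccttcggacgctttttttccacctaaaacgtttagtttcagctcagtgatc

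The promoters were searched on both strands for 4 motifs of lymphoid factors. The octamer ATGCAAAT, at which Pou2af1 protein acts with its partners, was in 1.6% of 32851 promoters of this length and in 0 of the 5. The EBF motif (TCCC, then 2 bases of any kind, then GGGA) was in 0.779% of promoters and in 1 of the 5, Cd22. The PU.1 motif GAGGAAGT was in 2.44% of promoters and in 0 of the 5. The E-box CAGGTG was in 17.2% of promoters and in 2 of the 5, Cd79a and Cd22. No motif overlapped another in these windows, and Pax5 held no match. In the GENCODE annotation Cd22 spans chr7:30865402-30880342, so its RefSeq window lies within that span. The stretches with the Cd79a E-box (chr7:24897331-24897360, plus strand) and the Cd22 EBF motif (chr7:30879058-30879087, minus strand) are shown with the match in capitals, because they belong to B cell genes that varied together among the colon libraries.
Cd79a: ttgtggccagccCAGGTGcagggcagttcc
Cd22: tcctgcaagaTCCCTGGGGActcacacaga

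In the colon, Jchain and Mzb1 were lower in every library of both tumour-bearing groups than in any sham library, while each of the 6 B cell genes had groups that overlapped. Over all tested genes, 2.66% were lower in all 6 of these libraries than in all 3 sham libraries. Jchain, the joining chain of polymeric IgA and IgM (GRCm38 chromosome 5, 88519809 to 88527891, minus strand), had 224.1, 165.1 and 295.2 CPM in the nivolumab libraries, 255.8, 162.4 and 88.5 CPM in the cancer libraries, and 911.7, 1146 and 1030 CPM in the sham libraries. All 6 libraries from tumour-bearing mice were below all 3 sham libraries, and the nivolumab and cancer libraries overlapped.

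Against sham, Jchain in cancer had a log2 fold change of −2.61 (SE 0.38, 0.164-fold, adjusted p = 0.0760), which did not pass the threshold of 0.05 in edgeR's quasi-likelihood test adjusted over all 13445 genes tested. Nivolumab against sham gave −2.17 (SE 0.37, 0.222-fold, adjusted p = 0.298, edgeR), also short of the threshold. Jchain ranked 14th of all genes by p in cancer against sham and 12th in nivolumab against sham. Nivolumab against cancer gave 0.43 (SE 0.36, adjusted p = 0.646, edgeR). A comparison added after the data were seen, with both tumour-bearing groups averaged against sham, gave −2.39 for Jchain (SE 0.30, adjusted p = 0.0950, edgeR). In this contrast 0.0149% of genes passed in edgeR and 0 members did. At an unadjusted p under 0.05, edgeR had 3 members there, against 8.49% of all genes. DESeq2 called 2 members in it, where 300 genes passed.

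Mzb1, a chaperone of the endoplasmic reticulum that helps antibody secretion in plasma cells and marginal zone B cells, had 3.85, 6.25 and 9.95 CPM in the nivolumab libraries, 7.34, 3.48 and 3.33 CPM in the cancer libraries, and 14.6, 26.1 and 18.4 CPM in the sham libraries. As with Jchain, every library from a tumour-bearing mouse was below every sham library. The log2 fold change of Mzb1 was −2.06 in cancer against sham (SE 0.46, adjusted p = 0.220, edgeR) and −1.56 in nivolumab against sham (SE 0.45, adjusted p = 0.579, edgeR), and neither passed.

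Pou2af1, the coactivator that binds octamer factors in B cells and plasma cells, had 4.69, 14.7 and 17.3 CPM in the nivolumab libraries, 12.6, 5.22 and 5.77 CPM in the cancer libraries, and 18.2, 25.9 and 17.1 CPM in the sham libraries. The cancer libraries were below all sham libraries, whereas nivolumab 3 lay within the sham range. Its log2 fold change was −1.37 in cancer against sham (SE 0.52, adjusted p = 0.391, edgeR) and −0.74 in nivolumab against sham (SE 0.51, adjusted p = 0.892, edgeR).

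No member passed the threshold in any of the 3 colon comparisons, and 0% of all tested genes did in each. At an unadjusted p under 0.05, edgeR had 1468 genes (10.9%) in cancer against sham, of which 3 were members, and 867 genes (6.45%) in nivolumab against sham, of which 2 were members. It had 1323 genes (9.84%) in nivolumab against cancer, of which 0 were members. With DESeq2 on the same counts, Jchain (adjusted p = 1.47e-08) and Mzb1 (adjusted p = 0.00137) passed in cancer against sham, where 379 genes did. Jchain (adjusted p = 8.67e-06) passed in nivolumab against sham, where 147 genes did, so the call depends on the tool. The log2 fold change of Jchain in cancer against sham stayed between −3.02 and −2.30 over 17 alternatives. Groups without overlap were common: 12.3% of tested genes were lower without overlap in cancer against sham, as were 3 members (Jchain, Mzb1 and Pou2af1). In nivolumab against sham the share was 6.11% of genes and 2 members (Jchain and Mzb1).

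**Figure D1:**
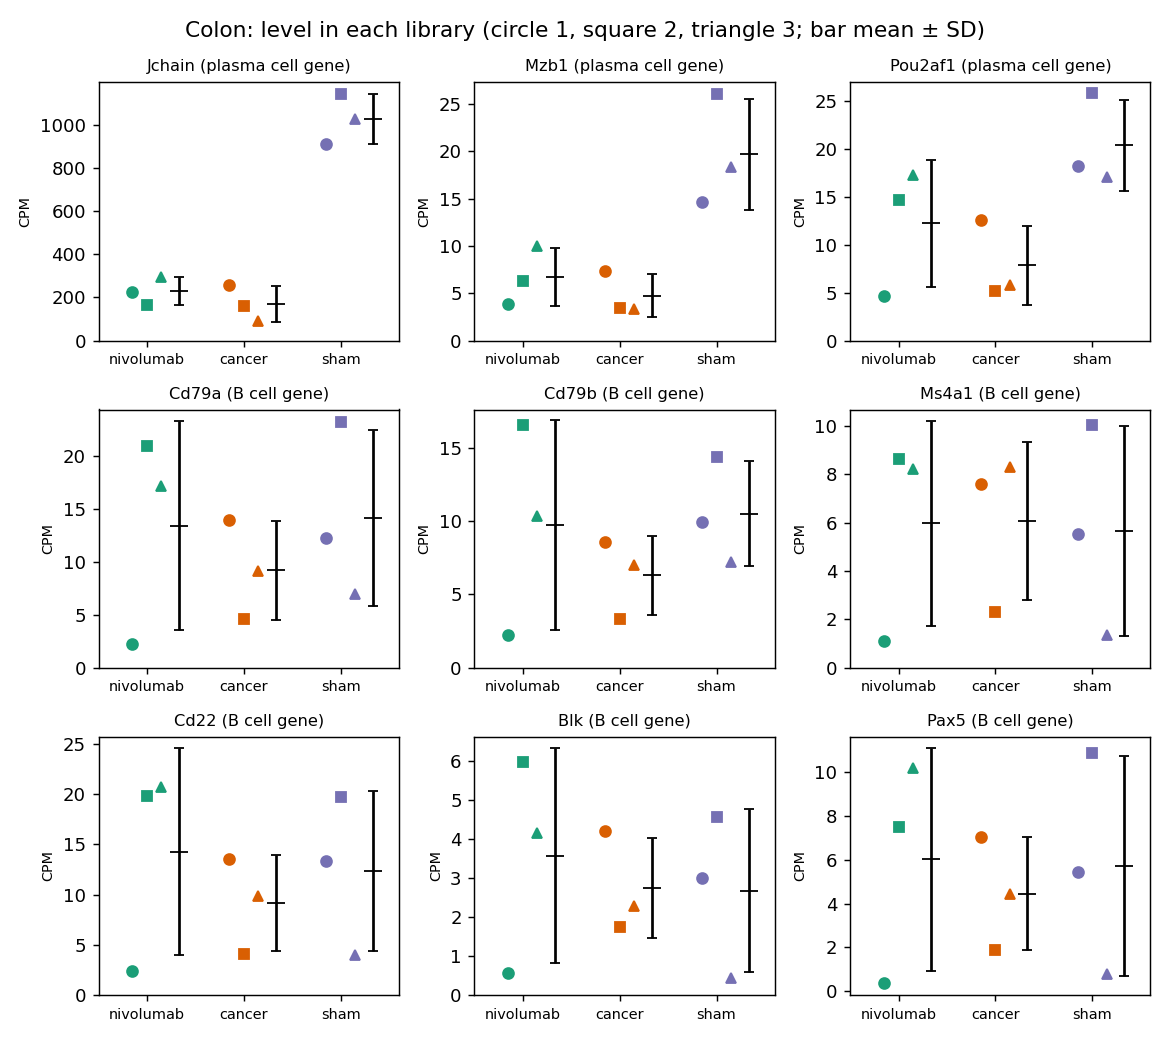
Level in CPM (y axis, from 0) of each of the 9 genes in the 9 colon libraries, by group (x axis), with circle, square and triangle for library 1, 2 and 3 and bars for the mean ± SD. Jchain and Mzb1 separate the sham libraries from all others, while the B cell genes have low libraries in every group (nivolumab 1, cancer 2 and sham 3).

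The 6 B cell genes had libraries low and high in every group. Cd79a, which with Cd79b forms the signalling part of the B cell receptor (chromosome 7, 24897381 to 24902197, plus strand), had 2.21, 21.0 and 17.2 CPM in the nivolumab libraries, 13.9, 4.57 and 9.20 CPM in the cancer libraries, and 12.3, 23.3 and 7.01 CPM in the sham libraries. Cd79b had 2.25, 16.6 and 10.4 CPM with nivolumab, 8.59, 3.35 and 7.01 CPM in cancer, and 9.94, 14.4 and 7.24 CPM in sham. In both genes nivolumab 1 and cancer 2 were the lowest libraries, and the 3 groups overlapped.

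Ms4a1, which encodes the surface protein CD20, had 1.08, 8.63 and 8.21 CPM in the nivolumab libraries, 7.60, 2.31 and 8.30 CPM in the cancer libraries, and 5.54, 10.04 and 1.37 CPM in the sham libraries. Cd22, an inhibitory coreceptor that binds sialic acid, had 2.37, 19.8 and 20.7 CPM with nivolumab, 13.6, 4.05 and 9.84 CPM in cancer, and 13.4, 19.8 and 3.97 CPM in sham. For these genes sham 3 joined nivolumab 1 and cancer 2 among the 3 lowest libraries.

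Blk, a Src family kinase of B cells, had 0.560, 5.98 and 4.16 CPM in the nivolumab libraries, 4.19, 1.74 and 2.29 CPM in the cancer libraries, and 3.01, 4.56 and 0.434 CPM in the sham libraries. Pax5 (chromosome 4, 44524757 to 44710487, minus strand) had 0.361, 7.49 and 10.2 CPM with nivolumab, 7.03, 1.87 and 4.42 CPM in cancer, and 5.45, 10.9 and 0.799 CPM in sham. The highest Pax5 library was 30.1 times the lowest, the widest range among the 9 genes in the colon. The same 3 libraries were lowest in both genes.

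The log2 fold changes of the 6 B cell genes lay between −0.73 and 0.10 in cancer against sham, between −0.11 and 0.42 in nivolumab against sham, and between −0.02 and 0.64 in nivolumab against cancer. None passed in edgeR, and the smallest adjusted p among them was 0.660, for Cd79b in cancer against sham. Their standard errors ran from 0.65 to 1.11, so that a change of 1 on the log2 scale could lie within the spread. The direction of several B cell genes turned when a single library was left out.

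**Figure D2:**
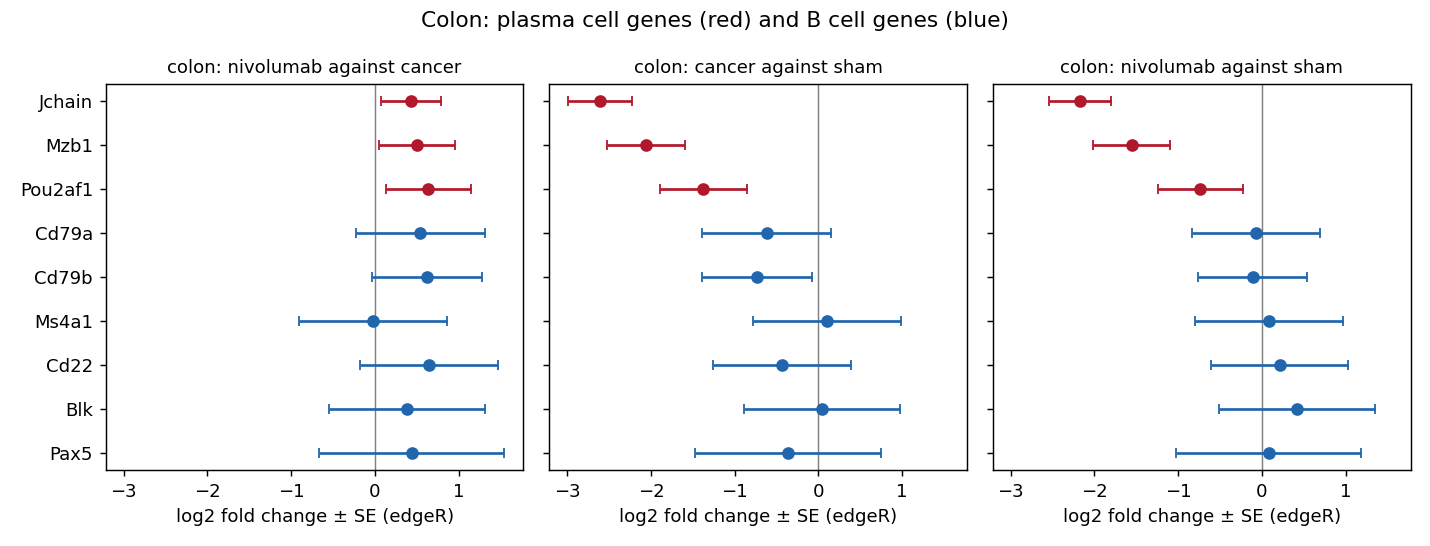
Log2 fold change (x axis, bars ± SE) of the 9 genes (y axis) in 3 colon comparisons, plasma cell genes in red and B cell genes in blue. Jchain and Mzb1 lie left of 0 in cancer against sham (−2.61 and −2.06) and in nivolumab against sham (−2.17 and −1.56), while the bars of most B cell genes cross 0.

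Within the 9 colon libraries the B cell genes varied together. The correlation of log2 CPM between pairs of the 6 genes ran from 0.74 (Cd79b with Blk) to 0.97, over 9 libraries that share depth and composition, and is given as a description. With the B cell genes, Jchain correlated at −0.12 to 0.33, Mzb1 at 0.13 to 0.61 and Pou2af1 at 0.44 to 0.84. Pou2af1 thus reached into the range found among the B cell genes. Nivolumab 1 and cancer 2 were among the 3 lowest libraries in 6 of the 6 genes, and sham 3 in 5 of them. The mean log2 CPM of the 6 genes was 0.35, 3.57 and 3.39 in the nivolumab libraries, 3.09, 1.52 and 2.64 in the cancer libraries, and 2.88, 3.62 and 1.18 in the sham libraries. Sham 3, with low B cell genes, had as much Jchain as the other sham libraries. The libraries low in B cell genes also differed in other markers. Nivolumab 1 and cancer 2 were lowest in proliferation genes (mean log2 CPM 3.58 and 2.29), with all others at 5.38 or above. Sham 3 was lowest in smooth muscle markers (6.89). The part of these differences in the B cell gene levels was not tested.

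T cell markers had ranges that overlapped among the groups, with mean log2 CPM of 1.59 to 2.91 with nivolumab, 2.18 to 3.10 in cancer and 2.01 to 3.10 in sham for the 15 markers present, none of them at 0. The mean of the 6 B cell genes was also added to the colon fit as a covariate, an alternative chosen after seeing the data. Jchain in cancer against sham was then −2.60 (adjusted p = 0.11002, edgeR), about as large as without it. That mean overlapped between cancer (1.52 to 3.09 log2 CPM) and sham (1.18 to 3.62), so the covariate could move the value little. No conclusion on B cell content is drawn from it.

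**Figure D3:**
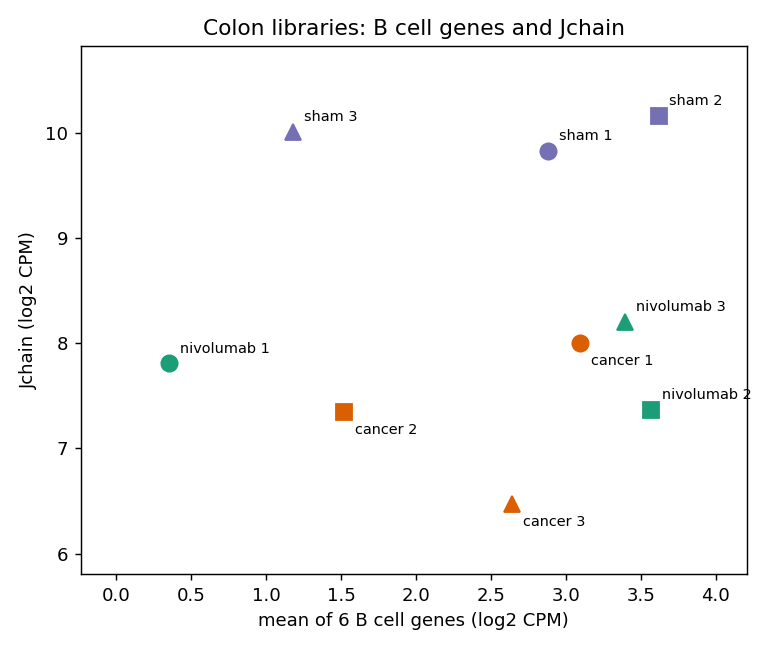
Mean of the 6 B cell genes (x axis, log2 CPM) and Jchain (y axis, log2 CPM) in each of the 9 colon libraries, coloured by group. The sham libraries lie above the others in Jchain at every level of the B cell genes, from 1.18 to 3.62 on the x axis.

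Levels were compared between genes only per kilobase of exon sequence. In sham colon, Jchain had 408.9 ± 46.5 CPM per kilobase (SD, n = 3), Mzb1 16.2 ± 4.83, Cd79a 9.73 ± 5.69, Pou2af1 7.999 ± 1.88, Cd79b 7.35 ± 2.51, Cd22 2.45 ± 1.58, Blk 0.989 ± 0.773, Ms4a1 0.913 ± 0.701 and Pax5 0.645 ± 0.570. Jchain lay far above the rest. In this order Cd79a and Pou2af1, Pou2af1 and Cd79b, Cd22 and Blk, Blk and Ms4a1, and Ms4a1 and Pax5 differed by less than the larger SD of each pair. The ratio of Jchain to Cd79a per kilobase was 58.8, 4.55 and 9.96 in the nivolumab libraries, 10.6, 20.6 and 5.57 in the cancer libraries, and 43.1, 28.5 and 85.1 in the sham libraries. The high ratio of nivolumab 1 came with a Cd79a level of 2.21 CPM, the lowest of the 9 libraries.

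Genes most like the members over the 9 colon libraries were ranked by Pearson's r of log2 CPM among 13433 genes. Among the nearest to the mean of the 6 B cell genes were Cxcr5, the receptor that brings B cells into follicles (r = 0.98), Tnfrsf13c, the receptor for the survival factor BAFF (0.98), Stra6 (0.97) and Fcrl1 (0.96). Nearest to Jchain were Eaf2 (0.99), Fhl2 (0.97), Comp (0.96), Wdr48 (0.94) and Derl3, a protein of endoplasmic reticulum quality control (0.94). These values are descriptions, since the libraries fall into groups that differ in Jchain.

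Of 22 other plasma cell genes tested in the colon, 17 had a negative log2 fold change in cancer against sham, with a median of −0.53 against 0.0023 over all genes, and 0 passed in edgeR (9 lower and 1 higher at an unadjusted p under 0.05). DESeq2 called 4 of them, Tnfrsf17, Derl3 and Eaf2 lower and Cd38 higher. In nivolumab against sham 17 of 22 were again negative, with a median of −0.28 against 0.030 over all genes, and 0 passed in edgeR (7 lower and 1 higher at an unadjusted p under 0.05), while DESeq2 called 4 lower, Irf4, Tnfrsf17, Derl3 and Eaf2. Both comparisons share the sham libraries. Tnfrsf17, which encodes BCMA, the receptor that keeps plasma cells alive, had 1.24, 0.537 and 0.670 CPM in the nivolumab libraries, 0.345, 0.261 and 0.298 CPM in the cancer libraries, and 3.04, 3.41 and 3.07 CPM in the sham libraries. Tnfrsf17 separated the sham libraries from the others as Jchain did, and was low in counts, with 6 to 8 counts per cancer library. Its log2 fold change was −3.38 in cancer against sham (SE 0.50, adjusted p = 0.0760, edgeR) and −1.96 in nivolumab against sham (SE 0.46, adjusted p = 0.417, edgeR).

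Derl3 had 3.97, 3.93 and 6.27 CPM in the nivolumab libraries, 3.24, 3.31 and 2.78 CPM in the cancer libraries, and 7.53, 12.7 and 10.2 CPM in the sham libraries, with a log2 fold change of −1.70 in cancer against sham (SE 0.34, adjusted p = 0.173, edgeR). Eaf2 had 1.69, 1.58 and 1.84 CPM with nivolumab, 1.77, 1.22 and 0.795 CPM in cancer, and 4.02, 5.36 and 5.11 CPM in sham, with a log2 fold change of −1.93 in cancer against sham (SE 0.41, adjusted p = 0.198, edgeR). Of the 22 genes, 6 were lower in all 6 tumour-bearing libraries than in all sham libraries, against 2.66% of all tested genes, namely Derl3, Eaf2, Edem1, Irf4, Slamf7 and Tnfrsf17. Of these, Edem1, Irf4 and Slamf7 are named after their values were seen. Xbp1, the factor that drives secretion in plasma cells and is also used by secretory epithelium, had log2 fold changes of −0.08 in cancer against sham and 0.09 in nivolumab against sham, and is likewise named after its values were seen.

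Of 22 other B cell genes tested, 18 were negative in cancer against sham (median −0.33) and 16 in nivolumab against sham (median −0.11), and 0 passed in edgeR (2 and 1 at an unadjusted p under 0.05), while DESeq2 called 1 in cancer against sham, Tnfrsf13b, and 0 in nivolumab against sham. The 1 gene of this list below all sham libraries in all 6 tumour-bearing libraries was Tnfrsf13b, which encodes TACI, a receptor for BAFF and APRIL that plasma cells also use. Tnfrsf13b had 1.77, 4.53 and 6.37 CPM with nivolumab, 1.68, 3.22 and 1.54 CPM in cancer, and 9.88, 11.4 and 8.14 CPM in sham (log2 fold change −2.19 in cancer against sham, SE 0.52, adjusted p = 0.231, edgeR). Of 18 genes of B cell receptor signalling, 11 were negative in cancer against sham with a median of −0.16, and 0 passed in edgeR (1 at an unadjusted p under 0.05) or DESeq2.

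**Figure D4:**
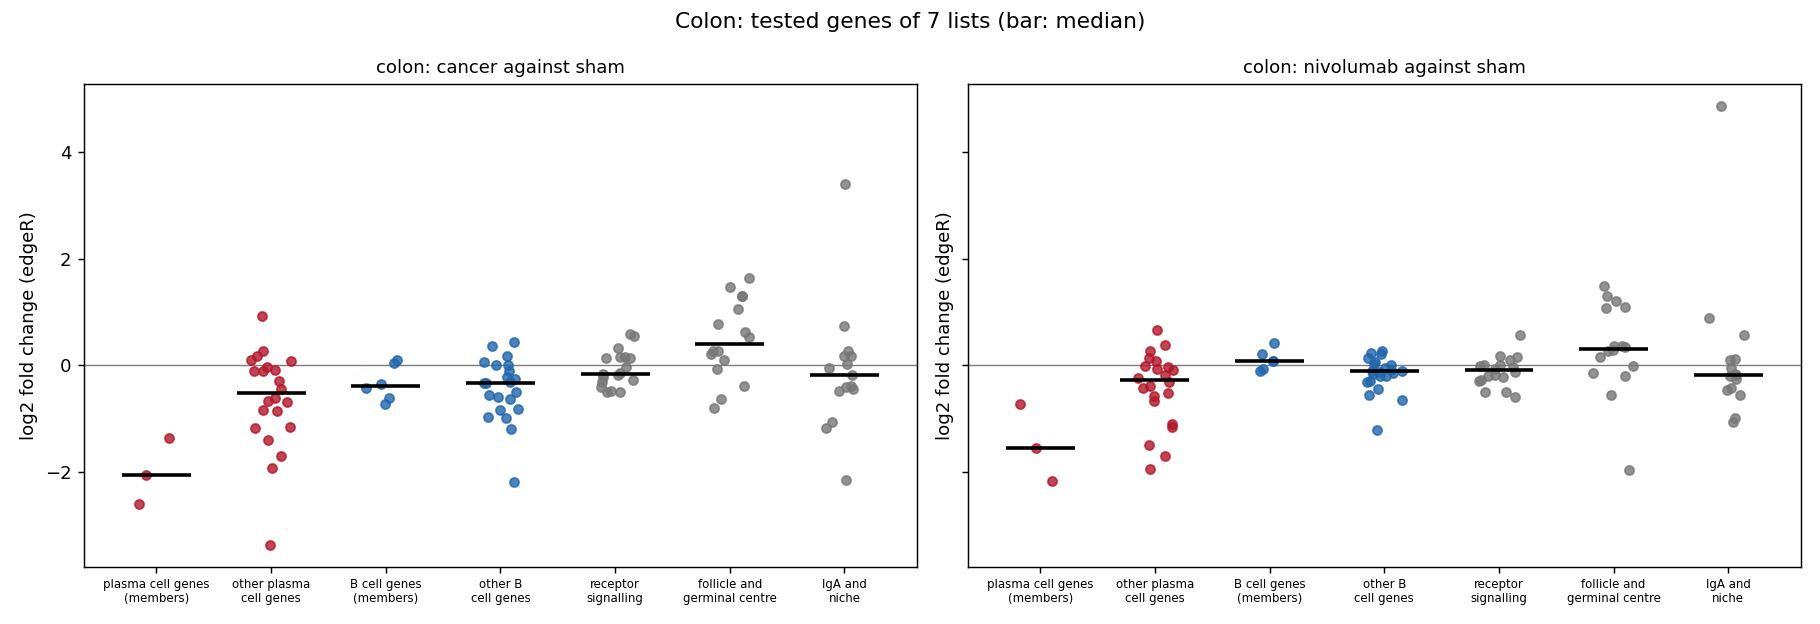
Log2 fold change (y axis) of each tested gene in 7 lists (x axis) in the colon, cancer against sham on the left and nivolumab against sham on the right, with bars at the median. Other plasma cell genes have medians of −0.53 and −0.28 and other B cell genes −0.33 and −0.11, and no gene drawn passed the threshold in edgeR.

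Of 16 follicle and germinal centre genes tested, 12 were positive in cancer against sham (median 0.40) and 11 in nivolumab against sham (median 0.31), and 0 passed in edgeR (1 and 2 at an unadjusted p under 0.05) or DESeq2. Cxcl13, the chemokine that attracts B cells into follicles, averaged 29.3 ± 14.7 CPM with nivolumab, 32.6 ± 17.3 CPM in cancer and 10.4 ± 4.94 CPM in sham (SD, n = 3). Its log2 fold change was 1.65 in cancer against sham (SE 0.59, adjusted p = 0.367, edgeR). Of 15 genes of IgA transport and the plasma cell niche, 9 were negative in cancer against sham (median −0.18) and 0 passed in edgeR (2 at an unadjusted p under 0.05), while DESeq2 called 1, Il6. Il6, a cytokine that supports plasma cells, averaged 2.79 ± 0.772 CPM with nivolumab, 0.992 ± 0.793 CPM in cancer and 0.0879 ± 0.102 CPM in sham, with a log2 fold change of 3.40 in cancer against sham (SE 1.03, adjusted p = 0.315, edgeR).

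Markers of other cells also differed in level between these colon groups, with 0 called by edgeR, and 4 neutrophil genes and Ly6d called by DESeq2 in cancer against sham. Ly6d, on the list of plasmacytoid dendritic cell markers and also made by stratified epithelium, had 10.4, 13.0 and 17.8 CPM in the nivolumab libraries, 167.3, 355.0 and 95.9 CPM in the cancer libraries, and 5.86, 9.49 and 6.61 CPM in the sham libraries, with a log2 fold change of 4.82 in cancer against sham (SE 0.51, adjusted p = 0.0748, edgeR). Of 11 proliferation genes 11 were negative in cancer against sham (median −1.17), with mean log2 CPM of 3.58 to 6.42 with nivolumab, 2.29 to 5.48 in cancer and 5.86 to 6.33 in sham. Of 9 bone marrow neutrophil genes tested, 9 were positive in cancer against sham, and the summed level over the 11 genes present was 35.0 to 180.2 CPM with nivolumab, 7.75 to 110.2 CPM in cancer and 1.00 to 4.53 CPM in sham, with Mpo at 0 in every nivolumab and sham library. Smooth muscle markers were positive in 10 of 10 in cancer against sham and in 0 of 10 in nivolumab against sham, and with their mean as a covariate, chosen after seeing the data, Jchain in cancer against sham was −2.53. Their part in the plasma cell gene differences was otherwise not tested.

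The antibody heavy chain constant gene Ighm, which encodes the IgM heavy chain of B cells and IgM plasma cells, had 10.5, 48.7 and 51.7 CPM in the nivolumab colon libraries, 33.0, 10.97 and 16.1 CPM in the cancer libraries, and 65.5, 80.5 and 44.1 CPM in the sham libraries. Its log2 fold change was −1.66 in cancer against sham (SE 0.60, adjusted p = 0.372, edgeR) and −0.78 in nivolumab against sham (SE 0.59, adjusted p = 0.911, edgeR). Ighg1, of the IgG1 class, had 8.27, 21.9 and 5.93 CPM with nivolumab, 106.9, 57.2 and 22.4 CPM in cancer, and 142.0, 43.8 and 12.7 CPM in sham. The cancer libraries were below all sham libraries in Ighm, and nivolumab 2 and 3 lay within its sham range. In Ighg1 the nivolumab libraries were all below the cancer libraries, but only just, with nivolumab 2 at 21.9 CPM and cancer 3 at 22.4 CPM. The sham libraries overlapped both groups in Ighg1. Both genes are named after their values were seen.

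In the dorsal horn the members were near the floor of detection. Jchain had 29, 25 and 30 counts in the nivolumab libraries, 39, 48 and 86 counts in the cancer libraries, and 36, 24 and 42 counts in the sham libraries. Pax5 had 19, 45 and 30 counts with nivolumab, 44, 49 and 36 counts in cancer, and 31, 30 and 27 counts in sham. Cd22 had 2, 10 and 6 counts with nivolumab, 8, 25 and 19 counts in cancer, and 8, 14 and 13 counts in sham. The Pax5 counts in cancer were all above those in sham, and the Jchain counts with nivolumab were all below those in cancer.

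Cd79a ran from 3 to 22 counts per dorsal horn library and Cd79b from 5 to 14. Mzb1 ran from 3 to 13 counts, Pou2af1 from 0 to 13, Ms4a1 from 0 to 5 and Blk from 0 to 8, with Blk at 0 in all 3 sham libraries. In these tables fewer genes had 1 count than 2 counts (medians of 37 and 175 genes per dorsal horn library).

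The expression filter kept Jchain, Cd79a, Cd79b, Cd22 and Pax5 in the dorsal horn fit and left out the other 4 members. Of the 5, 0 passed in cancer against sham (0.323% of 13609 genes did), 0 in nivolumab against cancer (17.2%) and 0 in nivolumab against sham (8.51%). At an unadjusted p under 0.05, edgeR had 0 of the 5 in cancer against sham (13.1% of all genes), 2 in nivolumab against cancer (34.2%) and 0 in nivolumab against sham (26.1%), so that the 2 of 5 lay close to the share of all genes, and DESeq2 also called 0 in each. In nivolumab against cancer, Jchain had a log2 fold change of −1.11 (SE 0.41, adjusted p = 0.0897, edgeR) and Cd22 −1.60 (SE 0.60, adjusted p = 0.0946, edgeR). Without cancer 1 both passed, at adjusted p = 0.0424 for Jchain and 0.0398 for Cd22 (edgeR). With the replicate number as a block Cd22 passed (−1.62, adjusted p = 0.0442, edgeR).

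Pax5 was the 1 member higher without overlap in cancer against sham, which held for 8.46% of genes. Jchain was the 1 member lower without overlap in nivolumab against cancer, which held for 19.5% of genes. Cd79a, Cd79b, Cd22 and Pax5 did not vary together here as they did in the colon. Their correlations of log2 CPM ran from −0.23 (Pax5 with Cd79a) to 0.72 (Cd79a with Cd79b), at low counts. The nivolumab libraries also held the most ganglion markers, with a summed level over 14 markers of 1296 to 2091 CPM, against 141.3 to 749.9 CPM in cancer and 163.6 to 691.0 CPM in sham. With the ganglion markers as a covariate the log2 fold change of Jchain in nivolumab against cancer was −1.82 (adjusted p = 0.0133, edgeR). Every nivolumab library was above every cancer library in these markers, so this fit cannot separate the markers from the group. No conclusion is drawn from it.

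**Figure D5:**
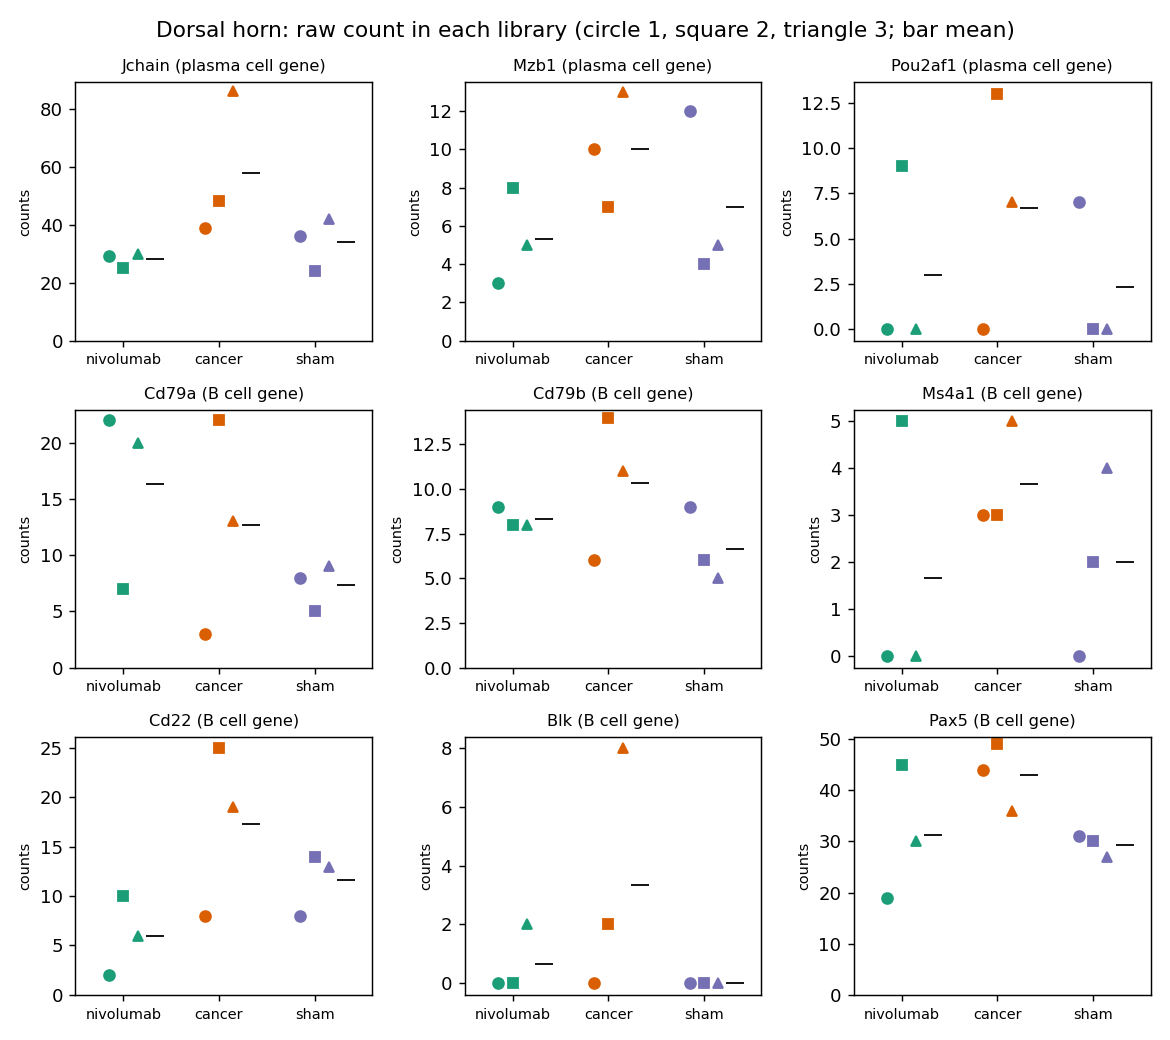
Raw counts (y axis) of the 9 genes in the 9 dorsal horn libraries, by group (x axis), with circle, square and triangle for library 1, 2 and 3 and a bar for the mean. No library exceeded 86 counts, reached by Jchain in cancer 3, and Blk was at 0 in all 3 sham libraries.

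Among other B lineage genes in the dorsal horn, 2 of 16 other B cell genes passed in nivolumab against cancer, where 17.2% of all genes did, and 2 in nivolumab against sham, where 8.51% did. In nivolumab against cancer Cd83, also a marker of activated antigen-presenting cells, fell (log2 fold change −0.51, SE 0.07, adjusted p = 0.00347, edgeR), and Cd180 rose (1.88, SE 0.56, adjusted p = 0.0470, edgeR). Against sham, Cd83 fell (−0.48) and Ebf1, a transcription factor of early B cells, rose (0.59) with nivolumab. Of 18 receptor signalling genes, 1 passed in cancer against sham (0.323% of all genes did), Cd81, which fell (−0.35, SE 0.06, adjusted p = 0.0423, edgeR). In nivolumab against sham 2 passed, Cd81 (−0.39, SE 0.06, adjusted p = 0.00777, edgeR) and the kinase gene Prkcb (−0.21), and both fell. In nivolumab against cancer 3 passed, of which Prkcb fell (−0.28) and Pik3r1 (0.28) and Pik3cd (0.42), subunits of phosphoinositide 3-kinase, rose. Many of these genes, Cd81 among them, are made by cells of the cord other than B cells. Cxcr4, a chemokine receptor of plasma cells and many other cells, rose in nivolumab against sham (1.52, SE 0.27, adjusted p = 0.0131, edgeR) and in nivolumab against cancer (0.92, SE 0.27, adjusted p = 0.0413, edgeR). Tnfsf13b, which encodes BAFF, fell in nivolumab against cancer (−0.58, adjusted p = 0.0467, edgeR). Of 18 other plasma cell genes, 1 passed in nivolumab against cancer, Ell2, which rose (0.45), and 1 in nivolumab against sham, Cd38, which fell (−0.53). Every nivolumab library held more ganglion markers than any cancer or sham library. In comparisons with nivolumab, treatment and ganglion content therefore cannot be told apart, for the genes of this paragraph and for the members alike. The ganglion covariate was examined for the members only.

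All 9 members were higher in sham colon than in sham dorsal horn in a joint fit of all 18 libraries, in which 38.2% of 14164 genes were higher. Jchain was 792-fold higher (log2 fold change 9.63, SE 0.53, adjusted p = 9.65e-10, edgeR), and Cd79a was 49.7-fold higher (5.63, SE 0.93, adjusted p = 6.44e-05, edgeR). Pax5 had the smallest difference, 5.04-fold (2.33, SE 0.92, adjusted p = 0.0318, edgeR), and did not pass without sham 1 or sham 2 of the colon, or without any 1 of the sham dorsal horn libraries, at adjusted p-values of up to 0.172, nor with the replicate block (2.24, adjusted p = 0.0547, edgeR). Mzb1, Pou2af1, Ms4a1 and Blk entered this fit only through the colon, so their being higher there is not independent of the filter.

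The response of Jchain to cancer differed between the tissues. The interaction term, colon response minus dorsal horn response to cancer against sham, was −3.35 on the log2 scale (SE 0.56, adjusted p = 0.0335, edgeR), and 0.155% of 14164 genes passed in either direction. Jchain had a log2 fold change of −2.61 in the colon and 0.79 (SE 0.41, adjusted p = 0.448, edgeR) in the dorsal horn, where the counts were 24 to 86. Red cell markers in the dorsal horn summed to 738.3 to 1274 CPM in sham and 109.4 to 220.9 CPM in cancer. Their part in the Jchain difference was not tested. The difference passed in 13 of 23 alternatives, with log2 values from −3.74 to −2.83. It did not pass without colon sham 1 (adjusted p = 0.0766) or colon cancer 2 (0.0729), nor without any 1 of the 3 sham dorsal horn libraries, dorsal horn cancer 2 or 3, or nivolumab 1 or 3 of the dorsal horn, where the adjusted p was up to 0.137, nor with the replicate block (0.0624). No member passed in the interaction with nivolumab against cancer (0.127% of genes did) or with nivolumab against sham (0.184%), where Jchain had 1.48 (adjusted p = 0.218) and −1.87 (adjusted p = 0.191, edgeR). At an unadjusted p under 0.05 there was 1 of 9 members in each, against 16.4% and 12.7% of all genes, and DESeq2 called 0 in the nivolumab against cancer term and 1, Jchain, in the other. Over the alternatives, the most genes called were 735 in the nivolumab against cancer term and 492 in the nivolumab against sham term.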

How the data were processed

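Per the labels' protocols, total RNA was isolated with TRIzol and libraries were made with a SmartScribe kit. The submitters' processing notes name FastQC 0.11.5, Trimmomatic, HISAT2, StringTie and GRCm38. Neither the counting tool nor the strand setting is given in the sources used here. The authors deposited raw counts per gene, 1 table for each tissue, with no normalisation. The members are annotated in GENCODE (GRCm38), and no annotated gene that overlaps them was found in the count tables by its exact symbol. Mzb1 overlaps a protein-coding gene on the same strand, SPATA24, and reads that both could share were not examined.

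The main test was edgeR's quasi-likelihood test (edgeR 4.0.16, R 4.3.3), with TMM scaling, its default expression filter by group and robust dispersions. The 9 libraries of a tissue shared a fit (13445 genes for colon, 13609 for dorsal horn), and the 18 libraries together (14164 genes) gave the tissue comparison and the interaction terms. P-values were two-sided and adjusted by Benjamini-Hochberg over all genes of a fit, with a threshold of 0.05. Each SE is the size of the log2 fold change divided by the square root of the F statistic. Log2 CPM used a prior count of 2. DESeq2 1.42.0, other scalings, no filter, a replicate block, marker covariates and leaving out each library were alternatives. The edgeR fits of the single tissues were tested on simulated data, with an outcome not reported here. The coefficient of biological variation came to 0.376 for colon and 0.170 for dorsal horn.

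The members, 18 other gene lists and the tests were chosen with earlier results of these data known. Besides members, each list could give up to 4 called genes per comparison (smallest adjusted p first), or up to 2 with the lowest p where none was called, with the 5 nearest by Pearson's r. Genes named outside this rule are marked, and not every gene that the rule chose is reported here. Replicates of a group were checked against each other, and every pair differed by more than sampling noise (lowest chi-square per degree of freedom 71.0 for colon, 9.62 for dorsal horn). Deviations of same-numbered libraries from their group means were correlated to see whether replicate numbers pair the libraries. Every same-numbered pair correlated above 0.1 in 1 of the 6 pairs of groups, dorsal horn nivolumab and cancer (0.19 to 0.28), and the labels do not say what a number marks. The blocked value is given beside the calls it changed.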

Additional observations from a re-analysis of the deposited data

Results flagged for a closer look

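The response of Jchain to cancer against sham differed between colon and dorsal horn by −3.35 on the log2 scale, by a test of the difference itself (interaction term, SE 0.56, adjusted p = 0.0335, edgeR). All 3 cancer colon libraries (88.5 to 255.8 CPM) were below all 3 sham colon libraries (911.7 to 1146 CPM). In the dorsal horn Jchain had 39, 48 and 86 counts in cancer and 36, 24 and 42 counts in sham, which overlap. Red cell markers were higher in the sham than in the cancer dorsal horn libraries, and their part was not tested. The call was lost in 10 of 23 alternatives, among them the replicate block (adjusted p = 0.0624, edgeR) and leaving out any 1 of the 3 sham dorsal horn libraries (up to 0.137).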

How the results depend on the processing

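The direction of Jchain and Mzb1 in the 3 colon comparisons was the same in every alternative run, and their adjusted p was not past 0.05 in any edgeR fit of them. DESeq2 called 2 members in cancer against sham in colon, 1 in nivolumab against sham and 2 in the averaged comparison. It called 2 in the interaction for cancer against sham and 1 in that for nivolumab against sham. Over the alternatives, the most genes called were 331 in the former term and 492 in the latter. The interaction for cancer added Mzb1, which had 3 to 13 counts per dorsal horn library. The replicate block called 1 member (Cd22, adjusted p = 0.0442) in nivolumab against cancer in the dorsal horn and 0 in the interaction for cancer, where Jchain had adjusted p = 0.0624, and 8 between the sham tissues, losing Pax5 (adjusted p = 0.0547). Same-numbered deviations from the group means correlated at −0.44 to 0.46 in colon and −0.08 to 0.53 in dorsal horn, and 0 and 3 of 9 libraries correlated best with their own number. The ganglion covariate called 1 member (Jchain) in nivolumab against cancer in the dorsal horn. Every nivolumab library was above every cancer library in the ganglion markers, so no conclusion is drawn from that call. Leaving out 1 library gave 0 to 1 members in the averaged colon comparison (1, Jchain, without cancer 1 or cancer 3), 0 to 2 in nivolumab against cancer in the dorsal horn, 8 to 9 between the sham tissues and 0 to 1 in the interaction for cancer.

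All genes called in cancer against sham in colon numbered 0, and 379 with DESeq2; nivolumab against sham had 0 and 147, nivolumab against cancer 0 and 181, and the averaged comparison 2 and 300. In the dorsal horn cancer against sham had 44, and 2 to 366 over the alternatives; nivolumab against sham had 1158, and 95 to 1993; nivolumab against cancer had 2345, and 771 to 3166. The interaction for cancer had 22, and 3 to 331.

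Signs turned only in genes far from the threshold. With the smooth muscle covariate Ms4a1 was −0.067 in cancer against sham and 0.98 in nivolumab against cancer, and Cd79a was 0.24 and Cd79b 0.014 in nivolumab against sham. In the dorsal horn, Pax5 in nivolumab against sham was −0.022 with the replicate block and −0.053 without sham 3 and cancer 3, and Cd79a in nivolumab against cancer was −0.0062 with the ganglion covariate. Leaving out 1 library moved cancer against sham in colon to −0.32 to 0.80 for Ms4a1, −0.82 to 0.073 for Cd22, −0.43 to 0.66 for Blk and −0.83 to 0.50 for Pax5. In nivolumab against cancer the ranges were −0.027 to 1.02 for Cd79b, −0.44 to 0.40 for Ms4a1, −0.24 to 0.82 for Blk and −0.21 to 0.93 for Pax5. In nivolumab against sham they were −0.54 to 0.44 for Cd79a, −0.74 to 0.30 for Cd79b, −0.37 to 0.75 for Ms4a1, −0.20 to 0.68 for Cd22, −0.16 to 1.01 for Blk and −0.53 to 0.91 for Pax5. In the dorsal horn they were −0.16 to 0.95 for Cd79a in nivolumab against cancer and −0.25 to 0.21 for Pax5 in nivolumab against sham. The causes were not tested. Counts of 0 to 86 per library limit every dorsal horn statement on the members.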

Other observations

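Ighm stood apart from the other B lineage genes in the dorsal horn. It had 87.4, 87.1 and 91.7 CPM in the nivolumab libraries, 35.1, 76.2 and 5.43 CPM in the cancer libraries, and 78.2, 99.4 and 80.7 CPM in the sham libraries, while Cd79a, its partner in the B cell receptor, had 3 to 22 counts per library. Cancer 3 was far below the other libraries in Ighm and the highest of the 9 in Jchain, with 86 counts. Ighg1 was at 0 in all nivolumab and sham dorsal horn libraries and had 12, 9 and 15 counts in the cancer libraries. Of all tested genes, 8.46% were higher without overlap in cancer against sham, and 19.5% were lower without overlap in nivolumab against cancer. Per kilobase of exon, sham dorsal horn had 45.7 ± 6.14 CPM of Ighm and 0.198 ± 0.0548 CPM of Cd79a, while sham colon had 33.6 ± 9.68 CPM of Ighm and 9.73 ± 5.69 CPM of Cd79a (SD, n = 3). Both heavy chain genes were picked after their values were seen, and no cause was tested.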
